A study of Mus musculus with 54 samples.

Results

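Gene-desert peaks were the accessible regions that lay far from any annotated gene in mouse embryonic stem (ES) cells. A peak of the merged list was taken when its centre was outside every gene body of the GENCODE M21 annotation and more than 50 kb from the nearest transcription start site (TSS) of any transcript, coding or not, on the 19 autosomes. This gave 9770 of 111741 autosomal peaks, or 8.74% (95% Wilson interval 8.58 to 8.91), of 113737 peaks on all chromosomes. ATAC-seq, in which the Tn5 transposase cuts and tags open DNA, was performed on ZHBTc4 cells, an ES cell line in which doxycycline (dox) turns off Pou5f1, the gene for OCT4. All groups carried a low-level fusion under the weak PGK promoter, mCherry-OCT4-AID, whose degron leads to its loss through the ubiquitin ligase Tir1, also expressed, once indole-3-acetic acid (IAA) is given, together with the cell cycle reporter YPet-MD, and all received dox. Of 54 samples in 24 groups, 22 had 26 hr of dox and were sorted into 4 cell cycle phases with or without 500 nM IAA for 2 hr, and 16 had 31 hr of dox, were sorted likewise and had 4.5 hr of washout after 2.5 hr of IAA or without it. The other 16 were unsorted, with 34 hr of dox and between 0 and 10 hr of IAA. The authors merged the peaks of all these experiments into 1 list of positions, so no peak had a level, a sample or a treatment, and no comparison between IAA and control cells was made here. A wide peak cannot be told from overlapping peaks of several libraries that were merged.

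Gene deserts are long stretches of the genome without protein-coding genes. Many flank genes that control development or build the nervous system, and some hold enhancers that act on a promoter across a long distance. Such enhancers are bound by transcription factors, while CTCF, the DNA-binding protein that halts cohesin, marks the ends of many chromatin loops.

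Sequences of some single desert peaks are printed here as examples, picked by their motif matches or their position. The composite OCT4::SOX2 motif, on which both factors bind side by side, was searched as CATTGTT directly followed by ATGCAAAT with up to 2 mismatches on either strand, in the middle 300 bp of each peak. It was found in 20 desert peaks (0.205%), of which 4 had 1 mismatch and 16 had 2. Among 300 bp windows of desert sequence without a peak the share was 0.195%, close to that of the peaks. The 4 closest matches and 1 of the matches with 2 mismatches are printed from GRCm38, with the match in capitals. A match on the minus strand appears as its reverse complement.
Amd2/Hs3st5 desert, chr10:36304896-36305000, plus strand: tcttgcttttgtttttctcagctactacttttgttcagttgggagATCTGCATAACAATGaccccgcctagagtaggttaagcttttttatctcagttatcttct
Nebl/H2al2a desert, chr2:17892863-17892967, plus strand: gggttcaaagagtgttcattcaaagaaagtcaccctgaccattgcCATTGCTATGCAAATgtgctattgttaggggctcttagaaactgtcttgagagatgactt
Trpc7/Spock1 desert, chr13:57362727-57362831, plus strand: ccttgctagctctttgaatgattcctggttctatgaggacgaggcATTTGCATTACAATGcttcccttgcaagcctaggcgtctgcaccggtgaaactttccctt
Manea/Epha7 desert, chr4:28300265-28300369, plus strand: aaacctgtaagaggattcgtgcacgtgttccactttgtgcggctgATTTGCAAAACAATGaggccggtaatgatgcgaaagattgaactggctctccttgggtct
Kcnv1/Csmd3 desert, chr15:45180212-45180316, plus strand: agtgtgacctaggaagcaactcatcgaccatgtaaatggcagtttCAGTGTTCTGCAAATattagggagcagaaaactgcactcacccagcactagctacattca

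The genes name the protein-coding neighbours on the lower and the higher coordinate. The Manea/Epha7 peak was 469 bp wide and lay 512919 bp from the nearest protein-coding TSS, although the TSS of the non-coding gene Gm11907 was only 53571 bp away. The Kcnv1/Csmd3 peak was 258 bp wide and 65362 bp from the TSS of Kcnv1, a potassium channel subunit gene. The match lay 5 bp from the peak centre in the Amd2/Hs3st5 peak and 105 bp from it in the Manea/Epha7 peak. All of these windows were intergenic by the rule.

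CTCF was the most frequent of the 7 motifs as searched. Its 12 letters were allowed 1 mismatch, whereas the other motifs except OCT4::SOX2 were allowed none. Printed in the same way are 3 desert peaks with an exact match to the CTCF consensus at the peak centre. They are followed by the whole of the peak that lay farthest from any TSS.
Sdk2/Rpl38 desert, chr11:114576954-114577055, plus strand: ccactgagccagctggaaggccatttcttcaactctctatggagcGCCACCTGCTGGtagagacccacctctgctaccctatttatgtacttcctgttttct
Pcdh20/Pcdh9 desert, chr14:90433288-90433389, plus strand: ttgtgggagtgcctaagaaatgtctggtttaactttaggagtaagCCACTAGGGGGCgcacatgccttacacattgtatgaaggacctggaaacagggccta
Ptger4/Dab2 desert, chr15:6238325-6238426, plus strand: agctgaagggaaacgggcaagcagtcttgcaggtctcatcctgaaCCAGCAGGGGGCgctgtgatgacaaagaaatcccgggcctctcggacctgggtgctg
Farthest peak, Dsel/Cntnap5a desert, chr1:114576286-114576472, plus strand: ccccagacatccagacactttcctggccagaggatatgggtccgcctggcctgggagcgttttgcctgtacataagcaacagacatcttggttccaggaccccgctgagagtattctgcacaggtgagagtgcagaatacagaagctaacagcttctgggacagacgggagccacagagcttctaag

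The CTCF match in the Pcdh20/Pcdh9 desert, between a pair of protocadherin genes for cell adhesion, was 1961943 bp from the nearest protein-coding TSS and sat in a peak of 535 bp. The peak in the Ptger4/Dab2 desert was 1042 bp wide. The farthest peak was 187 bp wide, 81.8% of its bases were repeat-masked, and it held none of the 7 motifs. It lay 612245 bp from its nearest TSS, that of the long non-coding gene 9330185C12Rik. The 5 farthest peaks were all in this desert on chromosome 1, at 592915 to 612245 bp from a TSS and 1069506 to 1127707 bp from any protein-coding TSS.

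Desert sequence held fewer peaks per Mb than intergenic sequence closer to genes. The class covered 371 Mb, or 15.5% of autosomal sequence, and carried 26.3 peaks per Mb, compared with 40.9 per Mb for intergenic sequence 1 to 50 kb from a TSS (33923 peaks in 829 Mb, hereafter near-gene peaks) and 46.6 per Mb for the autosomes as a whole. By chromosome, the log2 ratio of desert to near-gene density was -0.68 ± 0.32 (SD, n = 19 chromosomes), a fold of 0.625, and it was negative on 18 of 19 chromosomes (two-sided sign-flip permutation test over chromosomes, p = 2e-05). It ranged from -1.45 on chromosome 19 to 0.08 on chromosome 14, the single chromosome on which deserts were not the sparser class, with 39.9 desert peaks and 37.8 near-gene peaks per Mb. This rested on the 4 fullest deserts of that chromosome, described further on, and outside these stretches chromosome 14 had 20.3 desert and 31.8 near-gene peaks per Mb. These deserts were picked by their number of peaks, so leaving them out lowers the desert value. Chromosomes served as units because peaks are not replicates of a condition.

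Peak density declined with distance up to 500 kb. It was 45.3 ± 6.22 peaks per Mb (SD over chromosomes) at 1 to 10 kb from a TSS, 42.1 ± 6.07 at 10 to 25 kb and 33.9 ± 6.45 at 25 to 50 kb. Within the deserts it was 28.0 ± 6.29 at 50 to 100 kb, 24.4 ± 7.96 at 100 to 200 kb and 21.6 ± 8.44 at 200 to 500 kb. The last of these means is over the 16 chromosomes with at least 1 Mb of such sequence, the others are over 19. The SDs are spreads between chromosomes and do not measure the steps within a chromosome, and the steps between distance classes were not tested. These classes held 5815, 3031 and 904 desert peaks, and only 20 peaks lay beyond 500 kb, in 0.723 Mb of sequence.

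**Figure D1:**
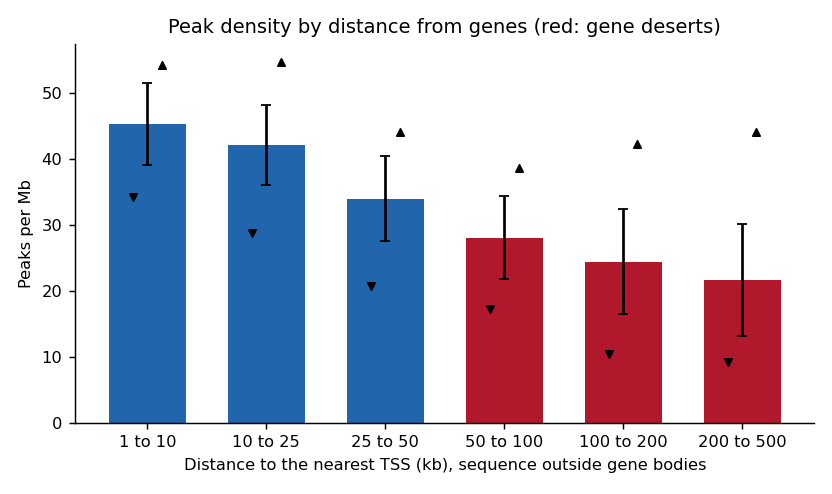
Peaks per Mb of intergenic sequence (y axis) against distance to the nearest TSS in kb (x axis). Bars are means over chromosomes, error bars are SD (n = 19 chromosomes, 16 for 200 to 500 kb) and triangles mark the lowest and highest chromosome. The means fall from 45.3 at 1 to 10 kb to 21.6 at 200 to 500 kb.

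The limit of 50 kb cut through a continuous range of distances. The nearest peaks outside it were at 49997, 49998 and 49998 bp with widths of 244, 222 and 320 bp, and the first inside were at 50009, 50009 and 50013 bp with widths of 719, 370 and 580 bp. The 1054 intergenic peaks at 45 to 50 kb had a median width of 364.5 bp, and the 911 desert peaks at 50 to 55 kb one of 350 bp. The median desert peak was 87809 bp from a TSS of any kind but 234808 bp from a protein-coding TSS. The nearest TSS belonged to a pseudogene for 3702 peaks (37.9%), a long non-coding RNA for 2071 (21.2%), a protein-coding gene for 1928 (19.7%), a small or other RNA for 1545 (15.8%) and an unverified transcript class (TEC) for 524 (5.36%).

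The number of desert peaks differed widely between chromosomes. Chromosome 1 held 891 (9.12% of the desert peaks), chromosome 14 held 820, chromosome 3 held 806, chromosome 2 held 768 and chromosome 5 held 747, whereas chromosome 7 held 228 and chromosome 19 held 97. Desert peaks made up 3.58% of the peaks of chromosome 7 and 15.9% of those of chromosome 14. Per Mb of desert sequence the mean was 26.1 ± 6.83 (SD, n = 19), with the highest values on chromosomes 14 (39.9) and 13 (38.7) and the lowest on chromosomes 19 (14.3) and 16 (16). Chromosome 1 therefore led by number and chromosome 14 by density. Without its 4 fullest deserts chromosome 14 held 330 desert peaks in 16.2 Mb, or 20.3 per Mb. Leaving out deserts picked by their number of peaks lowers the density. The other chromosomes kept their fullest deserts, so this value is not comparable with the mean.

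A small share of the deserts held most of the peaks. A desert is here the stretch between consecutive protein-coding gene bodies, as far as it holds desert sequence, and is named by these genes. Of 1714 deserts, 1265 held at least 1 desert peak, with a median of 4, and 268 held exactly 1. The 291 deserts with at least 10 peaks contained 6398 peaks (65.5%). The 166 fullest deserts (9.68% of all) were enough to reach 50% of the peaks, and they also contained 39.3% of desert sequence. The 20 fullest held 1419 peaks, or 14.5%, in 8.61% of desert sequence, which is 44.4 per Mb against 24.6 per Mb in the remaining deserts. Picking by number of peaks itself favours a high density, and the first 4 held 490 of the 1419 peaks. These numbers depend on the bounds, and with gene bodies of any type in place of protein-coding ones the 20 fullest of 3523 deserts held 7.94%, the fullest held 73, and 391 (11.1%) were needed for 50% of the peaks.

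The first 4 deserts by number of peaks, with ties ranked by density, adjoined one another or lay close together on distal chromosome 14, around the Slitrk genes, which encode neuronal transmembrane proteins that control neurite outgrowth and synapse formation. The desert between Tpm3-rs7, a tropomyosin-related sequence, and Gpc5, which encodes a heparan sulfate proteoglycan of the cell surface (chr14:113316755-115092214), held 168 peaks, or 167 per Mb. The desert between Trim52 and Slitrk1 (chr14:106135860-108908799) held 152, or 107 per Mb. The deserts Slitrk5/Tpm3-rs7 (chr14:111683142-113314607) and Slitrk1/Slitrk6 (chr14:108914159-110748579) held 85 each, at 99.1 and 82.0 per Mb, as many as Cdh6/Cdh9 on chromosome 15, which ranked after them by density. Slitrk1 was thus flanked by 237 desert peaks and Gpc5, with 15 more on its other side, by 183. Tpm3-rs7 was flanked by 253, the highest number of any protein-coding gene.

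The density of these stretches extended to sequence closer to TSSs. Intergenic sequence 1 to 50 kb from a TSS inside the same stretch carried 125 peaks per Mb in Tpm3-rs7/Gpc5, 113 in Trim52/Slitrk1, 96.6 in Slitrk5/Tpm3-rs7 and 81.1 in Slitrk1/Slitrk6, against 40.9 over all autosomes. Peaks of these 4 deserts differed from the other desert peaks in further measures. Their median width was 283.5 bp against 323 bp, their GC content 42.9% against 46.1%, and 11 of 490 held a CTCF match (2.24%, interval 1.26 to 3.97) against 690 of 9280 (7.44%, interval 6.92 to 7.99). Because these deserts were picked by their number of peaks and peaks in a stretch share their position, these values are descriptive and were not tested.

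Cadherin genes, which encode calcium-dependent adhesion proteins, bordered several of the next deserts. Cdh6/Cdh9 (chr15:13173676-16728755) held 85 peaks at 42.6 per Mb. Cdh8/Cdh11 (chr8:99416472-102632094) held 68 and Got2/Cdh8, on the other side of Cdh8, held 55, so that 123 desert peaks flanked Cdh8. Cntnap5b/Cdh20 on chromosome 1 held 51, but in 2.38 Mb, so that its density of 21.4 per Mb was below the value for all deserts.

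The next deserts lay on chromosomes 13, 17, 1 and 12. Nr2f1/Arrdc3 (chr13:78199758-80883383) held 77 peaks at 62.9 per Mb. Nr2f1 encodes an orphan nuclear receptor of the developing brain. Adcyap1/Mettl4 (chr17:93206538-94722589) held 66 at 80.9 per Mb, next to the gene for the neuropeptide PACAP. Camk1g/Plxna2 (chr1:193370299-194618217) held 61 at 75 per Mb and had the highest desert GC content of the 20, at 41.3%, as well as the most CTCF matches, in 6 peaks. Plxna2 encodes a semaphorin receptor. Sel1l/Flrt2 on chromosome 12, beside a gene for an axon guidance protein, held 67 peaks at 29.4 per Mb. Deserts of Rgs18/Brinp3 (57 peaks, 48.9 per Mb), Kcnt2/Cdc73 (52 peaks) and Brinp3/Pla2g4a (46 peaks) lay close together on chromosome 1.

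The last deserts of the 20 were large and close to the mean density. Igfbp7/Adgrl3 held 55 peaks, Cox7c/Edil3 held 49, Pcdh7/G6pd2 and Nudt12/Efna5 held 47 each, and Nxph1/Ndufa4 held 46, at 21.9 to 30.8 per Mb. Adgrl3 encodes a latrophilin, an adhesion receptor of synapses, and Efna5 an ephrin, a guidance ligand. Across the 20 deserts, with 1419 peaks, an OCT4::SOX2 match was found in Slitrk5/Tpm3-rs7 and Pcdh7/G6pd2, in 1 peak each. The share over all desert peaks was 0.205%, so counts this small say little about these deserts. The density of near-gene peaks in the same stretch ran from 17.9 per Mb in Pcdh7/G6pd2 to the 125 per Mb of Tpm3-rs7/Gpc5.

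**Figure D2:**
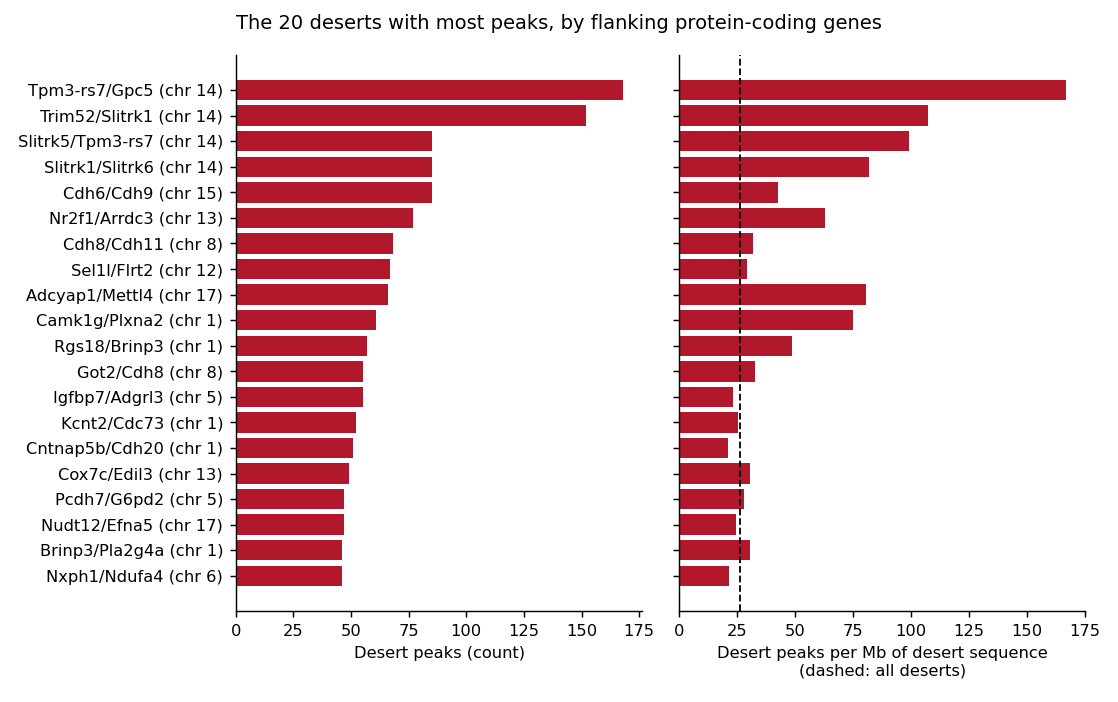
Number of desert peaks (left, x axis) and desert peaks per Mb of desert sequence (right, x axis) in the 20 deserts with most peaks, named by flanking protein-coding genes. The dashed line is the value for all deserts, 26.3 per Mb, and the bar for Tpm3-rs7/Gpc5 reaches 167 per Mb.

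At the other end, 449 deserts held no peak, but they were small and made up 14.3 Mb in all. The largest empty desert was Rorb/Anxa1 on chromosome 19 (chr19:19111197-20373427), between the gene for a retinoid-related nuclear receptor and that for annexin A1, with 0.723 Mb of desert sequence. It was followed by Tdrd3/Pcdh20 on chromosome 14 with 0.341 Mb, Pcsk5/Ostf1 on chromosome 19 with 0.252 Mb, Shisa6/Pirt on chromosome 11 with 0.248 Mb and Osr1/Nt5c1b on chromosome 12 with 0.223 Mb. Among the 199 deserts with at least 0.5 Mb of desert sequence, the next lowest were Gfra2/Gm9195 on chromosome 14 (1 peak), Tmprss15/Ncam2 on chromosome 16 (3 peaks), Pcdh17/Diaph3 on chromosome 14 (3 peaks) and Ncam2/Gm21833 on chromosome 16 (2 peaks), at 1.39 to 2.90 per Mb. Near-gene sequence in these stretches was sparse too, from 0 peaks in 0.344 Mb in Rorb/Anxa1 to 6.78 per Mb in Ncam2/Gm21833. Chromosome 14 therefore held both the densest deserts and some of the sparsest. An absent peak says only that none was in the list, and the depth that would set the detection limit is unknown.

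Among the deserts with at least 0.5 Mb of desert sequence, density showed little rank correlation with size or base composition. Over these 199 deserts the median was 18.3 peaks per Mb, with quartiles of 12.1 and 28.7 and a maximum of 167, and Spearman's rho of density was -0.0740 with the amount of desert sequence and 0.0569 with its GC content. These are correlations over deserts, which share chromosomes. Pooled by size, density was 23.8 per Mb in deserts of 0.5 to 1 Mb, 22.5 at 1 to 2 Mb and 17.7 in the 13 larger ones. Over all deserts, with the smaller ones included, it was 26.3 per Mb. Peaks in the denser deserts had a lower median width and a lower share of CTCF matches. In the 35 deserts under 10 peaks per Mb the median width was 332 bp and 15 of 230 peaks (6.52%, interval 3.99 to 10.5) held a CTCF match. In the 25 deserts with at least 40 per Mb the median width was 285.5 bp and 54 of 1380 (3.91%, interval 3.01 to 5.07) did. The CTCF intervals overlap, and the trend was not tested. The class with at least 40 per Mb includes the 4 fullest deserts of chromosome 14. In these, 11 of 490 peaks (2.24%) held a match, so the low share of the class rested in part on them. In the deserts with 20 to 40 per Mb, 91 of 1853 peaks (4.91%) held a match.

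**Figure D3:**
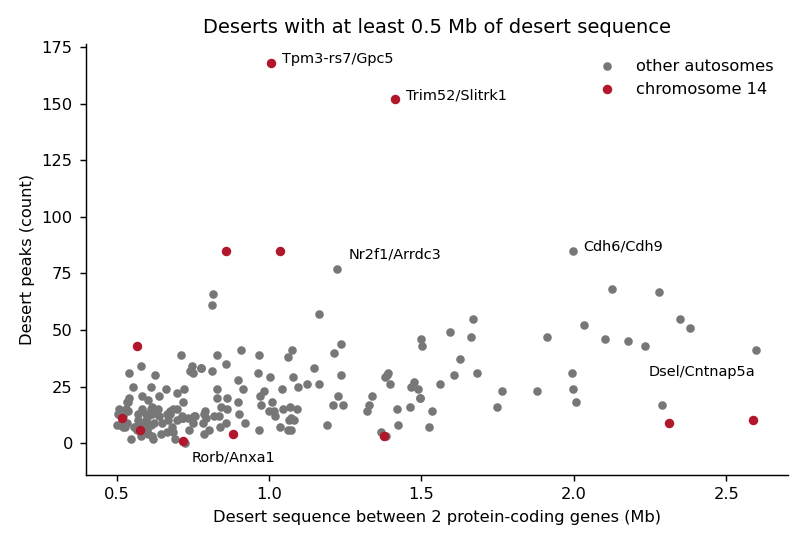
Number of desert peaks (y axis) against desert sequence in Mb (x axis) for the 199 deserts with at least 0.5 Mb, each point being 1 desert and those of chromosome 14 in red. Tpm3-rs7/Gpc5 and Trim52/Slitrk1 stand above the rest with 168 and 152 peaks, while other deserts of chromosome 14 lie near the base, as does the empty Rorb/Anxa1.

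Desert peaks also gathered in runs. Taking runs of at least 3 desert peaks with gaps of at most 12493 bp, 855 runs held 3602 peaks (36.9%), with a median of 3 per run, and 21 runs had at least 10. The run with most peaks had 35 over 129 kb in the Tpm3-rs7/Gpc5 desert (chr14:114392910-114521587), which also held the runs of 27, 20 and 16 peaks. In these 4 runs 1 peak held a CTCF match and none an OCT4::SOX2 match. The shares over all desert peaks were 7.18% and 0.205%, and at the latter share the runs are too small for its absence to say anything. At the opposite extreme, 816 desert peaks (8.35%) had no other peak of the list within 50 kb, compared with 2.67% of near-gene peaks. Desert peaks lie by rule more than 50 kb from any TSS, and so far from promoter peaks. The rule itself contributes to this difference.

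The genes beside deserts were counted by list, as a description without a test, since the lists were chosen with earlier results of these data known. A gene was counted as flanking when it bounded a desert with at least 1 desert peak, which was so for 2145 of 20780 protein-coding genes (10.3%), and 586 genes (2.82%) were flanked by at least 10 peaks. Of 50 genes for neuronal adhesion and synapses, 45 flanked a desert and 35 (70.0%) had at least 10 peaks, among them Slitrk1 (237), Gpc5 (183) and Cdh8, Slitrk5 and Slitrk6 (123 each). Of 48 developmental transcription factor genes, 38 flanked a desert and 18 had at least 10 peaks. Nr2f1 had 77, Sox9, a regulator of cartilage and gonad development, had 46 (31 toward Kcnj2 and 15 toward Slc39a11), Zeb2, a repressor active in neural crest, had 43, and Klf12 had 34. Of 50 genes for secreted signalling ligands and antagonists, 21 flanked a desert and 10 had at least 10 peaks. Slit2, an axon repellent, had 31, Sema3d had 28, Bmp7 had 27 and Bmp2 had 25. Only 14 of 1490 chemosensory receptor genes flanked a desert, and the highest, the taste receptor gene Tas2r114, had 5.

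The pluripotency network had 13 of 30 genes beside a desert, and 3 had at least 10 peaks. Tfap2c, whose product drives trophoblast and germ cell programmes, had 27, all in the 0.209 Mb of desert sequence toward Bmp7. Tbx3 had 13, of which 11 were toward Med13l, and Nr5a2 had 12 toward Ptprc. Sox2 (chr3:34650405-34652461) had 9 desert peaks toward Atp11b, Klf4 had 8 toward Actl7b and Myc had 7.

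The same lists were compared per Mb of desert sequence. Deserts beside neuronal adhesion and synapse genes held 27.7 desert peaks per Mb (1741 peaks in 62.9 Mb), those beside developmental transcription factor genes 28.5 and those beside secreted ligand genes 35.5, against 26.3 in all deserts. The value for the neuronal list was carried by the 4 fullest deserts of chromosome 14, and without them it was 21.3 per Mb (1251 peaks in 58.6 Mb), below the 25.3 of all other deserts. The values of the other lists do not involve these deserts. Without the fullest desert of each list, the developmental transcription factor genes had 25.9 per Mb (Nr2f1/Arrdc3 left out), the secreted ligand genes 39.1 (Lcorl/Slit2 left out) and the chemosensory receptor genes 12.7 (Tas2r114/Prb1 left out). Deserts beside pluripotency genes had 36.4 per Mb, with 93 peaks in 2.56 Mb, but 28.1 without the Tfap2c/Bmp7 desert, and those beside chemosensory receptor genes had 15.3, with 21 peaks in 1.37 Mb. The lists were not tested, and some deserts are counted under more than 1 list, as is the one between Tfap2c and Bmp7.

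Desert peaks were narrower than near-gene peaks. Their widths had a median of 320.5 bp (quartiles 236 and 546.75) and ran from 156 to 2238 bp, so that all of them together covered 1.15% of desert sequence. By chromosome the median width was 326.5 ± 18.9 bp (SD, n = 19) for desert and 406 ± 27.9 bp for near-gene peaks, a difference of -79.0 ± 22.8 bp with lower values in deserts on 19 of 19 chromosomes (sign-flip permutation test, adjusted p = 4.8e-05, Benjamini-Hochberg over 12 features). Against intronic peaks the difference was smaller, at -49.7 bp. For scale, intronic peaks had a median of 373 bp and promoter peaks one of 968 bp. Peaks of at least 1000 bp made up 5.80% of desert and 7.92% of near-gene peaks.

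The 5 widest desert peaks were in 5 different deserts. The widest, of 2238 bp (chr15:37080401-37082638), was between Zfp706 and Grhl2, an epithelial transcription factor gene. It was followed by peaks of 2176 bp in Kcnt2/Cdc73 (chr1:143548804-143550979), 2074 bp between Xkr9 and Eya1 (chr1:14000935-14003008), 2062 bp between Pde4d and Rab3c (chr13:110018396-110020457) and 1997 bp between Rarb and Thrb, the genes for a retinoic acid and a thyroid hormone receptor (chr14:17559258-17561254). None of the 5 held any of the motifs in its middle 300 bp.

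Composition differed in the same comparison. GC content of the middle 300 bp was 46.0 ± 0.811% for desert and 48.2 ± 0.985% for near-gene peaks, lower in deserts on 19 of 19 chromosomes (difference -2.19 ± 0.755 percentage points, permutation test, adjusted p = 4.8e-05). The observed over expected CpG ratio was 0.220 ± 0.0223 against 0.265 ± 0.0158 (difference -0.0451 ± 0.0190, lower on 19 of 19, adjusted p = 4.8e-05, permutation test). Repeat-masked bases made up 32.5 ± 4.55% of desert and 25.5 ± 2.86% of near-gene windows, higher in deserts on 18 of 19 chromosomes (difference 7.09 ± 4.46 points, permutation test, adjusted p = 0.0001). Against intronic peaks the repeat difference was larger, at 13.2 points. More than 50% of the whole peak was repeat in 2819 desert peaks (28.9%). The next peak of any kind was 8.85 ± 2.02 kb away for desert and 5.14 ± 0.470 kb for near-gene peaks (difference 3.70 ± 1.93 kb, higher on 18 of 19, permutation test, adjusted p = 4.8e-05). A desert peak cannot have a promoter peak close by, and the rule itself contributes to this last distance.

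**Figure D4:**
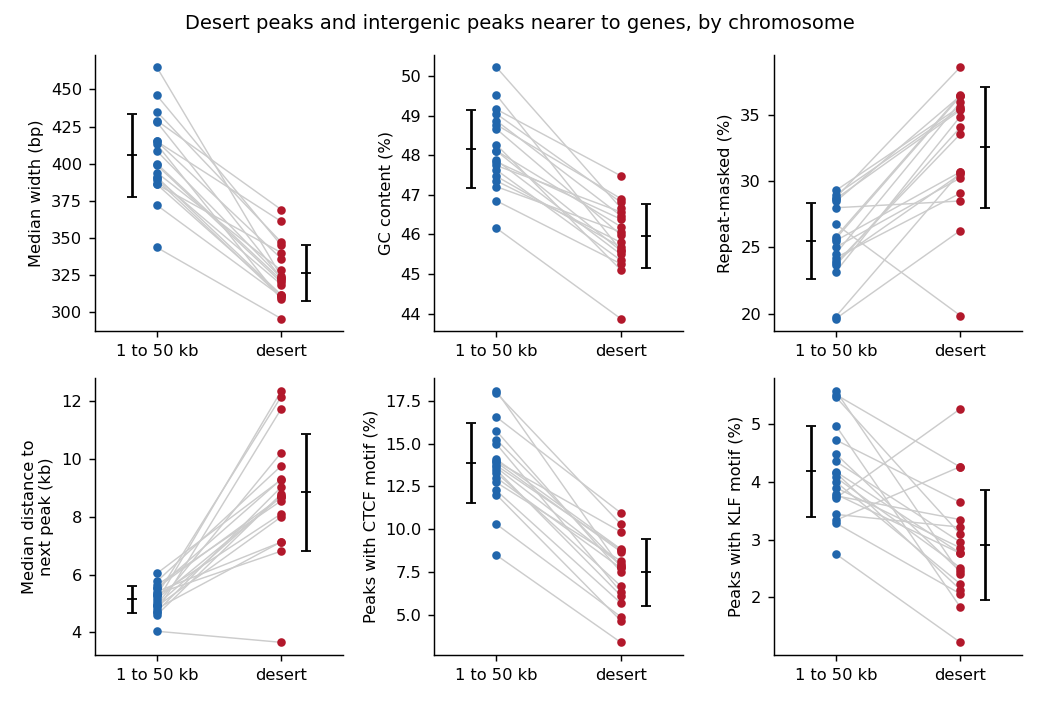
Median width (bp), GC content (%), repeat-masked share (%), median distance to the next peak (kb) and shares of peaks with a CTCF or KLF match (%) on the y axes, for near-gene peaks (blue, 1 to 50 kb) and desert peaks (red). Each point is 1 of 19 autosomes, grey lines join the same chromosome, bars are mean ± SD, and the y axes do not start at 0. CTCF falls on every chromosome, from a mean of 13.9% to 7.50%.

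CTCF matches were less frequent in desert peaks. A match to the CTCF consensus, searched as 12 letters with up to 1 mismatch on both strands, was found in 701 desert peaks (7.18%, interval 6.68 to 7.70) and in 4637 near-gene peaks (13.7%, interval 13.3 to 14). By chromosome the shares were 7.50 ± 1.97% and 13.9 ± 2.34%, a difference of -6.37 ± 1.61 points that was negative on 19 of 19 chromosomes (sign-flip permutation test, adjusted p = 4.8e-05). It was -2.10 points when only exact matches were counted. Within deserts the share was 8.22% (7.54 to 8.95) at 50 to 100 kb, 5.97% (5.18 to 6.87) at 100 to 200 kb and 4.65% (3.46 to 6.22) at 200 to 500 kb. Beyond 500 kb 0 of 20 peaks had a match, with an interval of 0 to 16.1%. Desert peaks with a CTCF match were wider than those without (median 458 against 314 bp) and had fewer repeat-masked bases, 23.6%, than desert peaks as a whole. KLF matches, searched as GGGNGTGGC, fell from 4.18 ± 0.789% of near-gene to 2.91 ± 0.958% of desert peaks (difference -1.27 ± 1.17 points, lower on 17 of 19, permutation test, adjusted p = 0.000549), and the difference was -2.30 points with whole peaks. Desert windows were lower in GC and the KLF consensus is rich in GC, and the part of base composition in these differences was not tested.

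The motifs of OCT4, SOX2 and ESRRB did not differ past the threshold. OCT4::SOX2 matched 20 desert peaks (0.205%, interval 0.133 to 0.316) and 57 near-gene peaks (0.168%, interval 0.130 to 0.218), with a difference of 0.0252 ± 0.199 points (permutation test, adjusted p = 0.611). OCT (ATGCAAAT), which is also the second part of OCT4::SOX2, was found in 264 desert peaks, SOX (CCATTGTT), whose last letters are the first part, in 213, and ESRRB (TCAAGGTCA), the site of an orphan nuclear receptor, in 191. Their differences from near-gene peaks were 0.444 ± 1.11, 0.300 ± 0.931 and -0.120 ± 1.01 points (adjusted p = 0.13, 0.212 and 0.611, permutation tests). Near-gene peaks matched OCT4::SOX2, OCT and SOX in 0.168%, 2.26% and 1.77%. In desert windows without a peak the shares were higher, at 0.195%, 3.36% and 2.02%. These searches did not set near-gene peaks apart from such windows, so the comparison says little about sites bound by OCT4 or SOX2. With SDs this large a small difference in either direction would not have been detectable, and some of these results depended on the processing. OCT was higher in desert peaks with a limit of 100 kb (1.07 points, adjusted p = 0.00919), with protein-coding genes only (0.578, adjusted p = 7.5e-05) and against intronic peaks (0.939, adjusted p = 0.000735, permutation tests). SOX was higher with protein-coding genes only (0.425, adjusted p = 0.000307) and ESRRB lower with whole peaks (-0.543, adjusted p = 0.0209, permutation tests). TEAD (ACATTCCA), the site of the Hippo pathway factors, was found in 2.05 ± 0.477% of desert and 2.36 ± 0.391% of near-gene peaks (difference -0.313 ± 0.477, lower on 14 of 19, permutation test, adjusted p = 0.0142), a call that was lost under 3 alternatives. The difference was -0.0396 points with a limit of 25 kb (adjusted p = 0.846), -0.202 with protein-coding genes only (adjusted p = 0.0936) and -0.483 with whole peaks (adjusted p = 0.0539), by the same permutation test. In all, 1715 desert peaks (17.6%) held at least 1 of the 7 motifs.

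Compared with the deserts around them, the peaks were rich in GC and in CTCF, ESRRB and KLF matches. All 1211422 non-overlapping 300 bp windows of desert sequence without a peak served for this comparison. Their GC content was 39.2 ± 0.650%, and desert peaks were 6.81 ± 0.651 points higher on 19 of 19 chromosomes (permutation test, adjusted p = 3.33e-05, Benjamini-Hochberg over 10 features). The share of windows with a match was 1.37% for CTCF, 0.439% for ESRRB and 0.660% for KLF, so that desert peaks had 5.25, 4.46 and 4.09 times these shares, higher on 19 of 19 chromosomes for each (permutation tests, adjusted p = 3.33e-05). TEAD was 1.41 times as frequent (1.42% of windows, adjusted p = 7.14e-05, permutation test). SOX, with 2.02% of windows, and OCT4::SOX2, with 0.195%, had ratios of 1.08 and 1.05 (adjusted p = 0.845 and 0.971, permutation tests), and OCT was lower in peaks, with 3.36% of windows and a ratio of 0.805 (adjusted p = 0.0105, permutation test). Repeat-masked bases, which were more frequent in desert than in near-gene peaks, were less frequent in desert peaks than in these windows (32.5% against 38.9 ± 2.26%, difference -6.40 ± 2.82 points, lower on 19 of 19, permutation test, adjusted p = 3.33e-05). The windows were not matched for GC content. Among 32851 RefSeq promoter windows of 300 bp, 4.33% held a CTCF match, 5.76% KLF, 1.74% OCT, 1.35% TEAD, 1.05% SOX, 0.423% ESRRB and 0.122% OCT4::SOX2. A consensus match is a match of letters, and no binding was measured here.

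**Figure D5:**
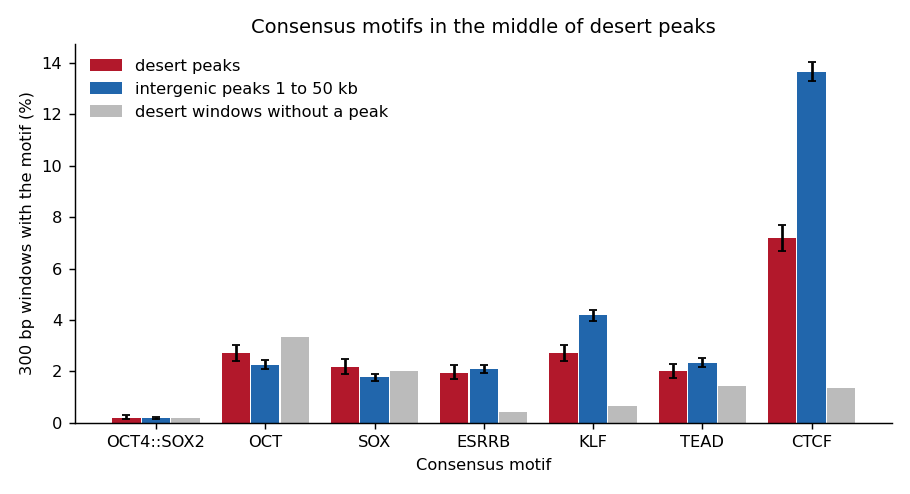
Share of 300 bp windows with a consensus match (y axis, %) for 7 motifs (x axis), in the middle of desert peaks (red), in the middle of near-gene peaks (blue) and in desert windows without a peak (grey). Error bars are Wilson 95% intervals. CTCF is at 7.18%, 13.7% and 1.37%, while OCT4::SOX2 is at 0.205%, 0.168% and 0.195%.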

How the data were processed

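The authors aligned ATAC-seq reads to the mouse genome with STAR 2.6.1c, removed duplicates with Picard, called peaks with MACS2 2.1.1.20160309 and joined the peaks of every dox-treated OCT4-AID experiment by BEDTools merge. The deposited file holds the position of each region in bp, without score or count. The study's methods also remove regions over 5 kb and regions that overlap input peaks or blacklisted sites. The list held 10 autosomal regions over 5 kb, none of them in deserts, so this removal was not complete in it, and whether the input and blacklist filters were applied is unknown. Whether peaks were called per library or on pooled reads is not given in the sources used here, and the depth is unknown.

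Positions (GRCm38, given 1-based) were compared with GRCm38.p6 sequence and GENCODE M21 in Python 3.11.15 with pysam 0.24.0, pandas 2.3.3, numpy 2.4.6, numba 0.67.0, scipy 1.17.1 and matplotlib 3.10.9. Densities count bases outside N. Sets of peaks were compared by two-sided sign-flip permutation tests over the 19 autosomes with 100000 resamples, whose smallest p is 1e-05, against a threshold of 0.05 after Benjamini-Hochberg adjustment. The test was tested on simulated data. Wilson intervals cover counting error only, and peaks of a desert are not independent. Repeats are the soft-masked bases. Named genes flank the 20 fullest, 5 densest and 5 largest empty deserts, the 5 farthest and widest peaks and the 5 largest runs, or are the list genes with most peaks. Of these runs, 1 is not reported here. The sparse deserts, the density classes of deserts, the density of near-gene peaks inside a stretch, the density per list and the values without the 4 fullest deserts or a list's fullest desert were added after values were seen. The peaks, lists and tests were chosen with earlier results of these data known. Alternatives were other distance limits, protein-coding genes only, whole peaks, intronic peaks for comparison, other mismatch limits, other desert bounds, and chromosome 14, narrow or wide peaks left out.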

Additional observations from a re-analysis of the deposited data

How the results depend on the processing

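Of 110 alternatives over 15 results, 97 kept direction and side of the threshold, for results with a test, or stayed within 1.5 times for counts. The number of desert peaks was 17789 with a limit of 25 kb, 3955 with 100 kb and 27174 when only protein-coding genes were counted. Bounding deserts by gene bodies of any type, 391 of 3523 deserts (11.1%) rather than 166 of 1714 (9.68%) were needed for 50% of the peaks. TEAD was no longer called with a limit of 25 kb (-0.0396 points), with protein-coding genes only (-0.202) or with whole peaks (-0.483). OCT passed the threshold with a limit of 100 kb (1.07 points), with protein-coding genes only (0.578) and against intronic peaks (0.939), SOX with protein-coding genes only (0.425), and ESRRB with whole peaks (-0.543). OCT4::SOX2 turned to -0.0127 with whole peaks. The cause was not tested. The KLF difference ran from -2.30 to -1.03 points, the CTCF difference from -8.32 to -2.10 points, the width difference from -95.5 to -49.7 bp, the repeat difference from 5.26 to 13.2 points and the log2 density ratio from -0.82 to -0.60. Without chromosome 14 the 20 fullest deserts held 12.3% of the peaks and the fullest held 85. No paired analysis was possible because the list is merged over all samples and no value belongs to a replicate.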
